A study of Homo sapiens with 24 samples.

Results

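Molecular chaperones of the HSP70, HSP110, HSP60, HSP10 and small heat shock protein families, together with the J-domain proteins that work with HSP70, were measured in HEK293T cells after knockdown or overexpression of the long non-coding RNA FMR4. Members were the probe sets annotated to a single gene whose symbol starts with HSPA, HSPB, HSPD, HSPE, HSPH, DNAJA, DNAJB or DNAJC and a number, without the endoplasmic reticulum stress genes HSPA5, DNAJB9, DNAJB11 and DNAJC3. Where a gene had several probe sets, that of highest mean was used. This gave 62 genes among 18417 genes measured: 12 HSPA and HSPH genes, 6 HSPB genes, HSPD1 and HSPE1, 5 DNAJA, 11 DNAJB and 26 DNAJC genes. The symbol pattern also allowed for HSP90A followed by a number, which no HSP90 gene matches, so HSP90AA1 and HSP90AB1 were treated as partners. HSPA1A and HSPA1B, the main heat-inducible HSP70 genes, have 5 probe sets between them, all of them annotated to both, and were left out.

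The 24 arrays fall into 8 conditions of 3 biological replicates. HEK293T, a human embryonic kidney line that carries the SV40 large T antigen, received 0.5 µg of pcDNA3.1 plasmid with FMR4 (FMR4 pcDNA3.1) or without it (CTRL pcDNA3.1), or 40 nM of an siRNA against FMR4 (FMR4 siRNA) or of a control siRNA (CTRL siRNA). Each was collected at 6 and at 24 h. By the study's methods, plating and transfection fell on the same day, so time after plating and time after transfection cannot be told apart. Plasmids went in with Lipofectamine 2000CD and siRNAs with Lipofectamine RNAiMAX, so the nucleic acid and the reagent cannot be told apart when the arms are compared, and no untransfected cells are among these samples. RNA from 3 technical replicates was pooled for each array. No probe set of the annotation used is named for FMR4, so the knockdown and the overexpression were not checked here.

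HSP70 proteins bind exposed hydrophobic stretches of unfolded proteins in a cycle driven by ATP. J-domain proteins bring the client and trigger ATP hydrolysis, and nucleotide exchange factors such as HSPH1 and the BAG proteins release it. Small heat shock proteins (HSPB) hold unfolded proteins without ATP, while HSPD1 and HSPE1 form the folding chamber of the mitochondrial matrix. In heat or other protein stress the transcription factor HSF1 binds heat shock elements, which are inverted repeats of the unit GAA, upstream of a subset of these genes. Most J proteins are not stress-induced and serve a fixed compartment or client.

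All values are deposited log2 array signals, so a difference of 1 is a doubling, and a gene is called here when limma's adjusted p (Benjamini-Hochberg over all 21214 probe sets with a gene) is under 0.05. Array medians lay between 7.43 and 7.53, no arrays were identical, and the lowest correlation between any pair of arrays was 0.986. FMR4 siRNA 6 h replicate 3 stood furthest from the others, with a median correlation of 0.9884 where the next array had 0.9924. The 10 HEK293T marker genes were all above the silent level of 6, the upper quartile of 429 olfactory receptor and keratin-associated genes, with a median of 8.95. Of 11 markers of other cell types 7 were also above it, with a median of 6.29, COL1A1 being highest at 8.31, while PTPRC, DCN, LUM and ALB were below.

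The sequences before the transcription start are shown for 5 members that fell between the times and hold a match to the heat shock element, the control element of heat-inducible genes. HSPB8 is shown for its large values although it is not on the heat-inducible list used here. Of 17 members lower at 24 h in any treatment 15 had a sequence, and 9 of these held no match, among them HSPH1, which is on that list, DNAJC9, HSPA2, HSPA12A, DNAJC18, DNAJC7, DNAJA2 and DNAJB12. The sixth with a match was DNAJB6. Of all 54 members with a sequence 18 held a match (33.3%), as did 16.2% of all genes with one. A link between holding a match and falling was not tested. Windows run from 250 bases before to 50 bases after the start annotated by RefSeq on GRCh38.p14, and are written 5′ to 3′ on the gene's own strand. Capitals mark every match to a pair of inverted units, GAANNTTC or TTCNNGAA, searched on both strands. DNAJB1 lies at chr19:14518348-14518647 on the minus strand, DNAJA1 at chr9:33025023-33025322, HSPB8 at chr12:119178681-119178980, HSPB1 at chr7:76302423-76302722 and HSPA6 at chr1:161524290-161524589, these 4 on the plus strand.
DNAJB1: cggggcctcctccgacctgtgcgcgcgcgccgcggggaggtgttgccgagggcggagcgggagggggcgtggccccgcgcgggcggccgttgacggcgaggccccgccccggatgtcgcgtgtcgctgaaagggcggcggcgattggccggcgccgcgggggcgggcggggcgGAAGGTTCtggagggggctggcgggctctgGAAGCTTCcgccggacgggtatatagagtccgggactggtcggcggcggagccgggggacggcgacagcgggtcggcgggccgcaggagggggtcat
DNAJA1: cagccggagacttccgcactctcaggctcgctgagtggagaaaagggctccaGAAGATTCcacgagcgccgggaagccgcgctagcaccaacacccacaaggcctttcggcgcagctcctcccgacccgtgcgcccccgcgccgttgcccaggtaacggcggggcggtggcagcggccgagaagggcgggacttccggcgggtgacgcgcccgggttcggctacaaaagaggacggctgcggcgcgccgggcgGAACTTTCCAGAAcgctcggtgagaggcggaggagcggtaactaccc
HSPB8: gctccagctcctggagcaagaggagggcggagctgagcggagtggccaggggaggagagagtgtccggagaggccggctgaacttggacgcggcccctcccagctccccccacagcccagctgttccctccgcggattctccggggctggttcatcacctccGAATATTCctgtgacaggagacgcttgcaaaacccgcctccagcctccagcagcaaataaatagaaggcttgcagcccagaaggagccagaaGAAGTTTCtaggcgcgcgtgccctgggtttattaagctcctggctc
HSPB1: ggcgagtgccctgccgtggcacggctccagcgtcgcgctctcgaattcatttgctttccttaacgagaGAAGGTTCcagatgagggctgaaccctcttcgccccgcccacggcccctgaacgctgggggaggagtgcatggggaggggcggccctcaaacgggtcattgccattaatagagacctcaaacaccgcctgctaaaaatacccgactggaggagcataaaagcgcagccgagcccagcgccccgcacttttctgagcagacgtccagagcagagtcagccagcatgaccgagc
HSPA6: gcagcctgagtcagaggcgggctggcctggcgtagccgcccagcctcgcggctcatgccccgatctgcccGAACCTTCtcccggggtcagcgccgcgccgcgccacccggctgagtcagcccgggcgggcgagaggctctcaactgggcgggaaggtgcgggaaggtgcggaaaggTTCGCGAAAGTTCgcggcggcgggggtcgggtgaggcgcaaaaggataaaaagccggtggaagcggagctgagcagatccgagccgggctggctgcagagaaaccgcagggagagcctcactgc

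DNAJB1 has matches that begin 77 and 47 bases before the start shown, another of its 3 annotated starts has 1 more, and the remaining start has none. HSPA6 has matches beginning 180, 74 and 69 bases before the start, of which the overlapping pair makes a run of 3 units. DNAJA1 has a run of 3 units just after the start. Of the 62 members 54 had a window, 70 windows in all. A pair of units was found in 19 of these 70 windows (27.1%), against 4737 of all 35116 windows (13.5%). A run of 3 units, GAANNTTCNNGAA or TTCNNGAANNTTC, was found in 5 member windows (7.14%), those of HSPA6, HSPA8, HSPD1, DNAJA1 and DNAJB6, against 172 of all windows (0.49%). The 3-unit runs contain 2-unit matches, and a match is a description of these letters only.

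The highest mean values were those of the probe sets for HSPA8 (13.97), the constitutive cytosolic HSP70, HSPD1 (12.49), the mitochondrial HSP60, HSPA9 (12.41), the mitochondrial HSP70, HSPH1 (12), the HSP110 exchange factor, and HSPA4L (11.80), its relative. The 5 at or under the silent level were DNAJC5G (5.78), DNAJB7 (5.58), HSPB3 (5.53), DNAJA1P5 (4.78), a pseudogene of DNAJA1, and DNAJC5B (4.73), and the other 57 were above it. Probe sets bind their targets unequally, so these values order signals and not amounts of RNA. The 8 condition means of 37 members spanned under 0.3 on the log2 scale and those of 25 members 0.3 or more, with a median span of 0.265. Among the abundant members, the means of HSPA8 spanned 0.11, those of HSPA9 0.14, those of HSPA4 0.09, those of HSPD1 0.13, those of HSPE1 0.13 and those of DNAJC2, the ribosome-associated J protein, 0.17. None of these 6 was called in any comparison. HSPB8 had the widest span, 2.72, followed by DNAJC12 with 0.63 and HSPB1 with 0.57.

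Between 6 and 24 h several heat-inducible members fell and none of them was called higher. In bulk RNA, fewer cells that express a gene and less of its RNA per cell cannot be told apart. DNAJB1, the main inducible J protein of the cytosol, was lower at 24 h than at 6 h in all 4 treatments. In FMR4 siRNA cells it measured 10.70, 10.75 and 10.75 at 24 h, against 10.96, 10.86 and 11.28 at 6 h. In CTRL siRNA cells it measured 10.73, 10.81 and 10.63 at 24 h, against 11.07, 11.14 and 11.09 at 6 h. The 24 h arrays were below the 6 h arrays without overlap in both. In FMR4 pcDNA3.1 cells DNAJB1 measured 10.62, 10.76 and 10.61 at 24 h, against 10.93, 11.03 and 11.05 at 6 h. In CTRL pcDNA3.1 cells it measured 10.72, 10.59 and 10.60 at 24 h, against 11.02, 11.04 and 10.92 at 6 h. Again no array of 24 h reached the lowest of 6 h. The log2 differences were −0.30 (SE 0.0793, limma adjusted p = 0.0117) with FMR4 siRNA, −0.38 (adjusted p = 0.00239) with CTRL siRNA, −0.34 (adjusted p = 0.0116) with FMR4 pcDNA3.1 and −0.36 (adjusted p = 0.00874) with CTRL pcDNA3.1. DNAJB1 was the only member called lower in all 4, which was true of 74 of all genes (0.402%), and no member was called higher in 3 or 4, as 1.25% and 0.966% of all genes were. The fall with FMR4 siRNA was past the threshold in 5 of 6 fits that left out 1 array (adjusted p = 0.0789 without 6 h replicate 3), that with FMR4 pcDNA3.1 in 3 of 6 (up to 0.0732 without 24 h replicate 3, and also lost without 24 h replicate 1 or 6 h replicate 3), and that with CTRL pcDNA3.1 in 5 of 6 (0.0526 without 24 h replicate 2). With FMR4 siRNA it also missed the threshold when only the arrays compared (0.228) or the 12 siRNA arrays (0.0673) were fitted, or with array weights (0.069), over a range of 0.00356 to 0.0789 for 1 array left out.

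DNAJA1, the type A counterpart of DNAJB1, had 24 h arrays below its 6 h arrays in every treatment as well, but was called in CTRL siRNA cells only, with −0.35 (SE 0.089, limma adjusted p = 0.00873), a call lost without 6 h replicate 3 (0.0788) and with only the 12 siRNA arrays fitted (0.0616). The other differences were −0.26 with FMR4 siRNA (adjusted p = 0.0528), −0.28 with FMR4 pcDNA3.1 (adjusted p = 0.0652) and −0.22 with CTRL pcDNA3.1 (adjusted p = 0.155). Other settings called these in 3 of 10, 5 of 10 and 3 of 10 cases, with adjusted p from 0.00776, while leaving out 1 array called only the one with FMR4 siRNA, without 6 h replicate 1 (0.0156), and gave up to 0.349. Of 62 members 15 (24.2%) had a negative difference in all 4 treatments, as had 14% of all genes.

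HSPB8, a small heat shock protein that works with BAG3 in the removal of misfolded proteins by autophagy, showed the largest values. It was high on 5 of the 6 arrays of siRNA-transfected cells at 6 h. In FMR4 siRNA cells HSPB8 measured 7.57, 7.95 and 7.71 at 24 h, against 6.80, 9.41 and 10.55 at 6 h. In CTRL siRNA cells it measured 7.34, 7.27 and 7.88 at 24 h, against 8.89, 9.88 and 10.46 at 6 h. The 12 plasmid arrays lay between 6.88 and 7.44 at both times. FMR4 siRNA 6 h replicate 1 alone among the siRNA arrays of 6 h lay at or below the plasmid level. At 6 h the values rose with the replicate number in both siRNA conditions. In CTRL siRNA cells HSPB8 fell by 2.25 at 24 h relative to 6 h (SE 0.528, 4.75-fold lower, limma adjusted p = 0.00518), and passed the threshold without any 1 of the arrays compared (adjusted p up to 0.0428). It missed it when only the 12 siRNA arrays were fitted (0.0555). In FMR4 siRNA cells the difference was −1.18 (adjusted p = 0.137), and it depended on the arrays: −2.24 without 6 h replicate 1 (adjusted p = 3.3e-05) and −0.36 without 6 h replicate 3 (adjusted p = 0.648), the ends of the range over the 6 arrays left out. In plasmid cells it was −0.18 with FMR4 and −0.19 without (adjusted p = 0.894 and 0.884). These p-values rest on a spread shared by all 24 arrays. The SD of HSPB8 was 1.92 in FMR4 siRNA cells at 6 h and 0.09 to 0.25 in the plasmid conditions.

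HSPB1 (HSP27), a small heat shock protein that also guards actin, and HSPA6, an HSP70 gene that is nearly silent without stress, went the same way in CTRL siRNA cells. HSPB1 measured 11.10, 11.03 and 11.08 at 24 h, against 11.48, 11.69 and 11.75 at 6 h, a difference of −0.57 (SE 0.141, limma adjusted p = 0.00761). HSPA6 measured 6.48, 6.58 and 6.40 at 24 h, against 7.14, 6.97 and 6.97 at 6 h, a difference of −0.54 (SE 0.111, adjusted p = 0.00187). Both pairs of groups were apart, and both calls stood with any 1 array left out (adjusted p up to 0.0461 for HSPB1 and 0.014 for HSPA6), that of HSPB1 not with only the 12 siRNA arrays fitted (0.0686). In FMR4 siRNA cells HSPB1 measured 11.01, 11.23 and 11.37 at 24 h, against 11.10, 11.41 and 12.06 at 6 h, with overlapping arrays and a difference of −0.32 (adjusted p = 0.127), or −0.53 without 6 h replicate 1 (0.00293) and −0.05 without 6 h replicate 3 (0.763). HSPA6 there was 6.41, 6.28 and 6.80 at 24 h, against 6.72, 6.88 and 6.96 at 6 h. These overlap, although the difference of −0.36 was called (adjusted p = 0.0315). It was lost without 6 h replicate 2 or 3 or 24 h replicate 1 or 2, with adjusted p up to 0.195. HSPA6 is close in sequence to the pseudogene HSPA7, so its signal may hold both. Over all arrays it lay between 6.28 and 7.14, near the silent level of 6. Of the 24 arrays, FMR4 siRNA 6 h replicate 3 had the highest HSPB8, HSPB1, DNAJB1 and HSPH1 (12.20), and it is the array of lowest median correlation named above.

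HSPH1 fell by 0.19 at 24 h relative to 6 h in FMR4 siRNA cells (SE 0.0604, limma adjusted p = 0.0375) and by 0.19 in CTRL siRNA cells (adjusted p = 0.0338). Its arrays were apart, at 11.96, 12 and 11.79 against 12.01, 12.09 and 12.20 with FMR4 siRNA and at 11.90, 11.93 and 11.97 against 12.15, 12.02 and 12.19 with CTRL siRNA. These were narrow calls. Leaving out 1 array ended the first in 3 of 6 fits (24 h replicate 3, 6 h replicate 2 or 3, adjusted p up to 0.17) and the second in 5 of 6, every array but 6 h replicate 2, with adjusted p up to 0.164. Of the 12 heat-inducible genes with a probe set of their own, 3 were lower and none higher in FMR4 siRNA cells (DNAJB1, HSPA6, HSPH1), 5 lower in CTRL siRNA cells (with HSPB1 and DNAJA1), 2 lower in FMR4 pcDNA3.1 cells (DNAJB1, DNAJB6) and 1 lower in CTRL pcDNA3.1 cells (DNAJB1). The others of the list, HSPA8, HSPA4, HSPA4L, HSPD1, HSPE1 and DNAJB4, were called in none of these 4. The share of all genes called lower was 4.37% with FMR4 siRNA, 8.75% with CTRL siRNA, 3.03% with FMR4 pcDNA3.1 and 1.93% with CTRL pcDNA3.1. The list's median difference lay between −0.07 and −0.05, against −0.008 to 0.03 for all genes. That the list holds members known to have moved in these data means its counts are a description.

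**Figure D1:**
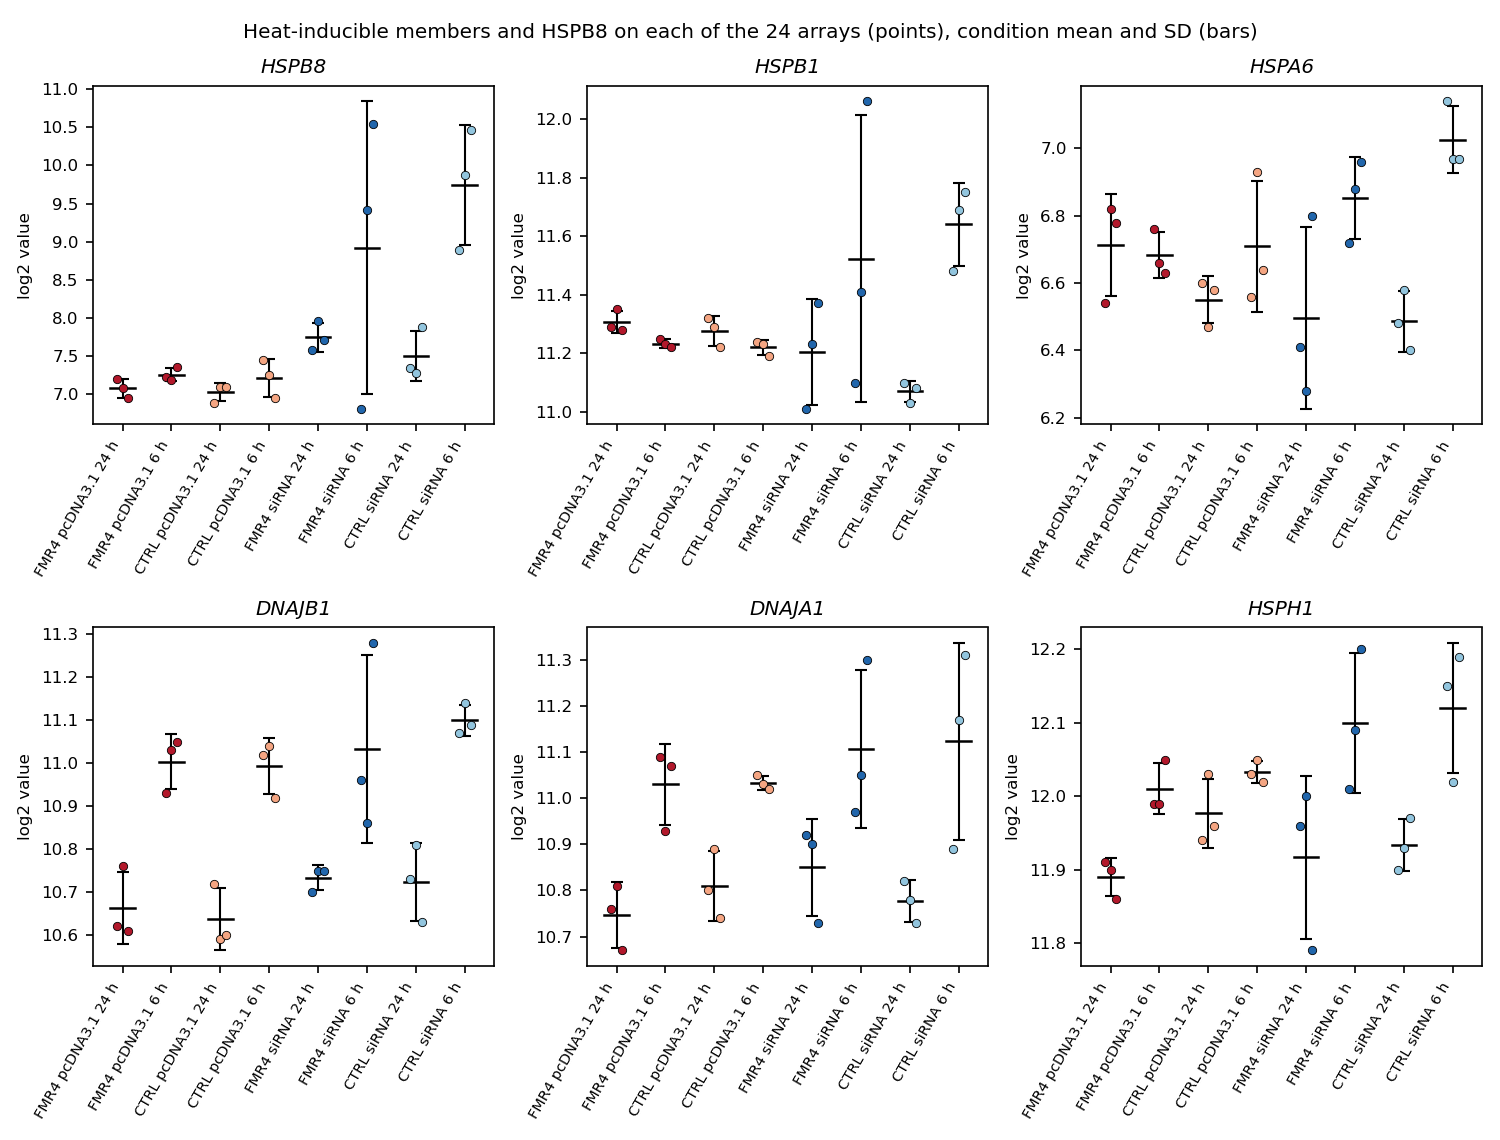
HSPB8, HSPB1, HSPA6, DNAJB1, DNAJA1 and HSPH1 on each array, as log2 values on the vertical axis and the 8 conditions on the horizontal axis, with points for arrays and black bars for the mean and SD of 3 arrays. DNAJB1 at 24 h lies below 6 h in every treatment, while HSPB8 exceeds 8 only on siRNA arrays of 6 h, from 8.89 to 10.46 with CTRL siRNA.

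In CTRL siRNA cells 7 members were higher and 12 lower at 24 h than at 6 h, where 9.8% of all genes were called higher and 8.75% lower. DNAJC12, a J protein that binds the aromatic amino acid hydroxylases, had the clearest rise. It measured 9.47, 9.44 and 9.57 at 24 h, against 8.82, 8.92 and 8.86 at 6 h, with no overlap and a difference of 0.63 (SE 0.0779, limma adjusted p = 2.56e-05). DNAJC13, the endosomal J protein RME-8, rose by 0.42 (adjusted p = 0.0106), DNAJC28 by 0.41 (0.0236), DNAJB14, of the endoplasmic reticulum membrane, by 0.39 (0.0154) and DNAJB7, which is below the silent level, by 0.29 (0.0225). DNAJC16 and DNAJC24 were the other members that rose, by 0.27 and 0.29. These calls rested in part on single arrays: without 6 h replicate 3 those of DNAJC13 (0.0775), DNAJC28 (0.104), DNAJB14 (0.0608) and DNAJB7 (0.0919) were lost. DNAJC28 was lost in 3 of 6 such fits (also 24 h replicate 1 or 2, up to 0.107), DNAJB14 in 4 (also 6 h replicate 1 and 24 h replicate 1 or 3, up to 0.0692) and DNAJB7 in 4 (also 6 h replicate 2 and 24 h replicate 1 or 3). Without 6 h replicate 3 the number of members called fell to 11 of the 19. It was 6 when only the 12 siRNA arrays were fitted.

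DNAJC9, a nuclear J protein that handles histones H3 and H4, had the largest fall in CTRL siRNA cells after HSPB8, HSPB1 and HSPA6. It measured 10.84, 10.74 and 10.81 at 24 h, against 11.31, 11.23 and 11.35 at 6 h, a difference of −0.50 (SE 0.0845, limma adjusted p = 0.000367). The groups were well apart, and the call stood with any 1 array left out. HSPA12A, DNAJC1, DNAJC18, DNAJC7 and HSPA2 were the other members that fell, by 0.21 to 0.37.

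In FMR4 siRNA cells 4 members were higher and 5 lower at 24 h, where 12.3% of all genes were higher and 4.37% lower. The rises were DNAJC12 (0.48, SE 0.0779, limma adjusted p = 0.000284), DNAJC16 (0.36, adjusted p = 0.00114), DNAJB5 (0.34, adjusted p = 0.000538) and the mitochondrial J protein DNAJA3 (0.20, adjusted p = 0.0253, lost without 24 h replicate 2 or 6 h replicate 2 or 3, up to 0.13). DNAJC12 measured 9.27, 9.56 and 9.43 at 24 h, against 9.08, 8.93 and 8.81 at 6 h. It is the member with the largest rise in both siRNA arms. Beside DNAJB1, HSPA6 and HSPH1 the falls were HSPA12B (−0.23, adjusted p = 0.028), an HSP70-like protein of endothelium, and DNAJC5G (−0.21, adjusted p = 0.0383), a testis form of cysteine string protein under the silent level. HSPA12B was lost without 24 h replicate 2 or 6 h replicate 1 or 3 (up to 0.156), and DNAJC5G without 24 h replicate 1 or 2 or 6 h replicate 1 or 3 (up to 0.128). The number of members called in this arm ran from 3 without 6 h replicate 3 to 15 without 6 h replicate 1, and was 0 when only its 6 arrays were fitted and 3 with the 12 siRNA arrays. With its 6 arrays alone DNAJC12 had an adjusted p of 0.0827, DNAJC16 0.131 and DNAJB5 0.0938, while with 1 array left out of the full fit their highest values were 0.00326 for DNAJC12, 0.00894 for DNAJC16 and 0.00354 for DNAJB5.

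In FMR4 pcDNA3.1 cells 1 member was higher and 5 lower at 24 h, where 3.3% of all genes were higher and 3.03% lower. DNAJC22, a membrane J protein, measured 6.14, 6.51 and 6.32 at 24 h, against 6.10, 5.82 and 5.96 at 6 h, a difference of 0.36 (SE 0.0826, limma adjusted p = 0.00975), lost without 24 h replicate 2 (0.0682) or 6 h replicate 2 (0.0677). The arrays were apart but close to the silent level. DNAJA2, a cytosolic type A J protein, measured 10.20, 10.25 and 10.09 at 24 h, against 10.44, 10.51 and 10.56 at 6 h, a difference of −0.32 (SE 0.0667, adjusted p = 0.00465) that was called with any 1 array left out. The remaining falls were DNAJB1, HSPA2 (−0.26, adjusted p = 0.0132), DNAJB12 (−0.26, adjusted p = 0.0318) and DNAJB6 (−0.21, adjusted p = 0.0416), each lost in at least 2 of the 6 fits without 1 array. For HSPA2 these were 24 h replicate 3 and 6 h replicate 2 (up to 0.0688). For DNAJB12 they were 24 h replicates 2 and 3 and 6 h replicates 1 and 3 (up to 0.192), and for DNAJB6 every array but 24 h replicate 2 (up to 0.186). DNAJB6 has another probe set, of lower mean, with a difference of −0.12 (adjusted p = 0.243), and the mean of both missed the threshold (0.0666). In CTRL pcDNA3.1 cells DNAJB13, a J protein of cilia and flagella, rose by 0.29 (adjusted p = 0.0487) and DNAJC22 by 0.28 (adjusted p = 0.0459), and DNAJB1 fell, where 3.83% of all genes were higher and 1.93% lower. Both rises are at signals near the silent level, and DNAJC22 kept its call in 1 of 6 fits without 1 array (only without 6 h replicate 3; up to 0.235) and DNAJB13 in 2 of 6 (without 24 h replicate 3 or 6 h replicate 2; up to 0.21).

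The knockdown comparison asks which members differ between FMR4 siRNA and CTRL siRNA cells. At 24 h 3 members were higher and 2 lower, where 3.43% of all genes were called higher and 2.45% lower. The median over the members was 0.01, against 0.004 over all genes. DNAJC7 (TPR2), a J protein that passes clients between HSP70 and HSP90, measured 11.04, 10.94 and 10.82 in FMR4 siRNA cells, against 10.63, 10.63 and 10.49 in CTRL siRNA cells. All 3 knockdown arrays were above all 3 control arrays, and the difference was 0.35 (SE 0.069, 1.27-fold, limma adjusted p = 0.00238). DNAJC24 (DPH4), which is needed for the diphthamide modification of elongation factor 2, measured 8.38, 8.41 and 8.06 in FMR4 siRNA cells, against 8.73, 8.60 and 8.78 in CTRL siRNA cells. The groups did not overlap here either, and DNAJC24 fell by 0.42 on the log2 scale (SE 0.0832, 1.34-fold lower, adjusted p = 0.00248). Both passed the threshold with any 1 of the 6 arrays left out, with adjusted p up to 0.0232 for DNAJC7 and 0.0213 for DNAJC24.

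The remaining members called at 24 h were less firm. HSPA12A, a distant HSP70 relative expressed in brain, measured 8.87, 8.90 and 8.80 in FMR4 siRNA cells, against 8.65, 8.56 and 8.53 in CTRL siRNA cells, a difference of 0.28 (SE 0.0699, limma adjusted p = 0.018). DNAJB5, a relative of DNAJB1, measured 9.47, 9.45 and 9.55 in FMR4 siRNA cells, against 9.34, 9.20 and 9.24 in CTRL siRNA cells, a difference of 0.23 (SE 0.0593, adjusted p = 0.0211). DNAJB7 measured 5.53, 5.46 and 5.40 in FMR4 siRNA cells, against 5.80, 5.75 and 5.78 in CTRL siRNA cells, a difference of −0.32 (SE 0.0863, adjusted p = 0.0291) under the silent level. No arrays overlapped in these 3. HSPA12A was no longer called on leaving out replicate 2 or 3 of the CTRL siRNA arrays or replicate 1 or 2 of the FMR4 siRNA arrays (up to 0.0866). DNAJB5 lost its call on leaving out replicate 2 or 3 of the CTRL siRNA arrays or replicate 3 of the FMR4 siRNA arrays (up to 0.121), and DNAJB7 without any array but FMR4 siRNA 24 h replicate 1 (up to 0.1). The count of 5 fell to 2 without replicate 2 or 3 of CTRL siRNA 24 h and to 3 without FMR4 siRNA 24 h replicate 2 or 3.

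The CTRL siRNA arrays of 24 h enter several of these comparisons, so each gene's values over all conditions stand beside them. For DNAJC7 the CTRL siRNA 24 h arrays were the lowest of all 24, the FMR4 siRNA 24 h mean of 10.93 lying between the CTRL pcDNA3.1 24 h mean of 10.99 and the FMR4 pcDNA3.1 24 h mean of 10.81. CTRL pcDNA3.1 was accordingly higher than CTRL siRNA at 24 h, by 0.41 (SE 0.069, limma adjusted p = 0.000928), and DNAJC7 fell by 0.27 with time in CTRL siRNA cells (adjusted p = 0.00889) but had differences of 0.05, −0.10 and 0.00 with FMR4 siRNA, FMR4 pcDNA3.1 and CTRL pcDNA3.1. HSPA12A was also lowest in CTRL siRNA cells, with 8.86 ± 0.05 in FMR4 siRNA cells, 8.83 ± 0.07 in FMR4 pcDNA3.1 cells, 8.79 ± 0.11 in CTRL pcDNA3.1 cells and 8.58 ± 0.06 in CTRL siRNA cells at 24 h (SD, n = 3). DNAJB5 had another order: FMR4 siRNA 24 h, at 9.49 ± 0.06, stood above CTRL siRNA at 9.26 ± 0.07 and both plasmid conditions at 9.15 ± 0.03 and 9.13 ± 0.06. DNAJC24 was 8.29 ± 0.19 in FMR4 siRNA cells at 24 h, the lowest of the 8 condition means, with FMR4 siRNA 24 h replicate 3 at 8.06 the lowest array of all. CTRL siRNA cells at 24 h, at 8.70 ± 0.09, had the highest of the 8, and FMR4 pcDNA3.1 cells measured 8.43 ± 0.04 and CTRL pcDNA3.1 cells 8.59 ± 0.05 at that time.

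**Figure D2:**
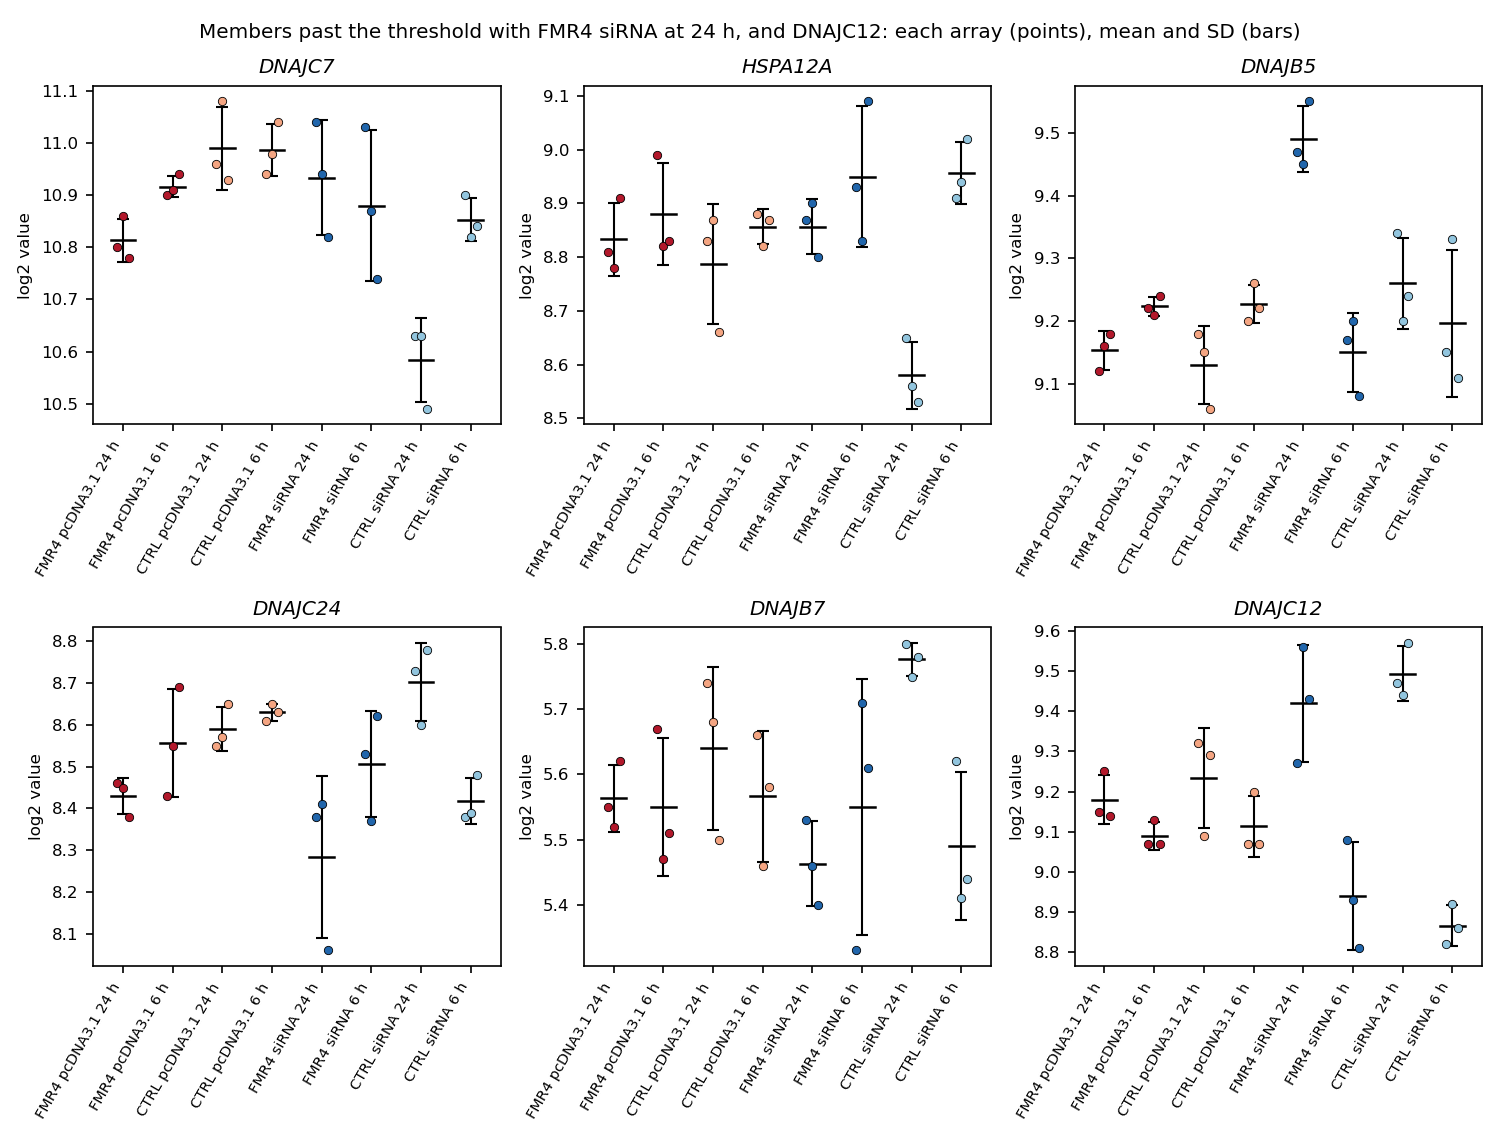
The 5 members called between FMR4 siRNA and CTRL siRNA cells at 24 h, and DNAJC12, as log2 values on the vertical axis and the 8 conditions on the horizontal axis, with points for arrays and black bars for the mean and SD of 3 arrays. DNAJC7 and HSPA12A are lowest in CTRL siRNA cells at 24 h, DNAJB5 is highest in FMR4 siRNA cells at 24 h (9.49) and DNAJC24 is lowest there (8.29).

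At 6 h no member was called between FMR4 siRNA and CTRL siRNA cells by limma, where 11 genes (0.0597%) were called in all. At an unadjusted p under 0.05 there were 2 members and 719 genes. The members of lowest p were DNAJB12, of the endoplasmic reticulum membrane (−0.18), DNAJC5G (0.15) and DNAJC8, a J protein of the spliceosome (0.15), each with an adjusted p of 1. HSPB8 had the largest difference, −0.82 (SE 0.528), across the wide spread given above. Without FMR4 siRNA 6 h replicate 3, 4 members were called, DNAJB12 among them with −0.27 (adjusted p = 0.0247). The change in the knockdown effect, 24 h minus 6 h, was called for DNAJC24 alone among the members, with −0.51 (SE 0.118, adjusted p = 0.0312), where 1.18% of all genes were called. At 6 h its values were 8.53, 8.37 and 8.62 with FMR4 siRNA, against 8.38, 8.39 and 8.48 with CTRL siRNA, which overlap. That call was lost in 6 of 12 fits without 1 array (CTRL siRNA 24 h replicate 1 or 3, CTRL siRNA 6 h replicate 1 or 2, FMR4 siRNA 24 h replicate 3, FMR4 siRNA 6 h replicate 1), with adjusted p up to 0.0964, and also when only the arrays compared were fitted (0.258) or all probe sets were adjusted for (0.066).

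Overexpression asks which members differ between FMR4 pcDNA3.1 and CTRL pcDNA3.1 cells, and limma called none at either time, as it called no gene at all (0% of 18417 genes at 24 h and 0% at 6 h). The study, which used limma and then clustering, listed DNAJC5G among genes concordant with FMR4 over knockdown and overexpression. The threshold of its limma step is not stated. Here DNAJC5G was not called between FMR4 and control cells in either arm at either time. Its mean with FMR4 siRNA was above the control at 6 h (5.92 against 5.77) and below it at 24 h (5.71 against 5.77). With FMR4 pcDNA3.1 it was above the control at 6 h (5.70 against 5.62) and at 24 h (5.88 against 5.83). Only the knockdown at 6 h thus had the sign opposite to a concordant change, and all these means lay under the silent level. At an unadjusted p under 0.05 there were 4 members and 602 genes at 24 h, and no member and 373 genes at 6 h. At 24 h the members of lowest p were DNAJA2 (−0.18), DNAJC7 (−0.18) and HSPA2 (−0.16), an HSP70 of the testis, with adjusted p of 0.999. At 6 h they were HSPD1 (−0.11), DNAJC30, a mitochondrial J protein (0.11), and DNAJB2, a neuronal J protein (0.11), with adjusted p of 1. All 62 differences lay between −0.19 and 0.16 at 24 h and between −0.12 and 0.13 at 6 h. HSPA8 had a difference of −0.04 at 24 h (SE 0.0427) and DNAJB1 of 0.03 (SE 0.0793).

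The control conditions differ in the delivered nucleic acid and reagent. CTRL pcDNA3.1 cells had lower HSPB8 than CTRL siRNA cells at 6 h, at 7.44, 7.24 and 6.94 against 8.89, 9.88 and 10.46, a difference of −2.54 (SE 0.528, 5.81-fold lower, limma adjusted p = 0.0194). The groups are more than 1 log2 unit apart at their nearest arrays. The call was lost without CTRL siRNA 6 h replicate 3 (0.119), CTRL pcDNA3.1 6 h replicate 1 (0.063) or CTRL pcDNA3.1 6 h replicate 3 (0.0986), and with only the 12 arrays of 6 h fitted (0.163). DNAJB2 was also lower in CTRL pcDNA3.1 cells (−0.26, adjusted p = 0.044), kept only without CTRL siRNA 6 h replicate 2 (up to 0.188). These were the 2 members called lower at 6 h, and none was higher, where 1.7% of all genes were lower and 1.6% higher. DNAJC9 (−0.30, adjusted p = 0.0523), HSPB1 (−0.42, adjusted p = 0.0897) and HSPA6 (−0.32, adjusted p = 0.0974) had arrays that did not overlap and missed the threshold. DNAJC9 passed it in 5 of 10 other settings (0.000757 with array weights, 0.0223 with only the arrays compared, 0.0427 at most), HSPB1 in 2 and HSPA6 in 1, and none of them with 1 array left out (up to 0.287). At 24 h DNAJC7 was the only member called, higher in CTRL pcDNA3.1 cells as given above, where 2.89% of all genes were higher and 1.59% lower, and the next by p were DNAJC12 (−0.26, adjusted p = 0.0583) and HSPA12A (0.21, adjusted p = 0.103). The probe set of DNAJB6 that was not used, of lower mean, passed the threshold here (−0.22, limma adjusted p = 0.0359). Between FMR4 siRNA and CTRL siRNA cells at 24 h that probe set narrowly missed it (−0.20, adjusted p = 0.0504).

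DNAJC12 was also the only member called for a change in the difference between the control conditions. HSPB8 had a larger change, 2.06 (SE 0.747), that was not called (limma adjusted p = 0.17). Its SE takes in the spread of FMR4 siRNA cells at 6 h (SD 1.92), which are not part of this comparison. For DNAJC12, CTRL pcDNA3.1 cells measured 9.32, 9.09 and 9.29 at 24 h, against 9.47, 9.44 and 9.57 in CTRL siRNA cells. At 6 h they measured 9.07, 9.20 and 9.07, against 8.82, 8.92 and 8.86 in CTRL siRNA cells. CTRL siRNA cells were thus below all CTRL pcDNA3.1 arrays at 6 h and above them at 24 h. The change was −0.51 (SE 0.11, limma adjusted p = 0.0278), where 1.12% of all genes were called. It was lost in 8 of 12 fits without 1 array, all but those without CTRL siRNA 6 h replicate 2, CTRL siRNA 24 h replicate 2 or CTRL pcDNA3.1 24 h replicate 1 or 3, with adjusted p up to 0.0882.

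FMR4 pcDNA3.1 and FMR4 siRNA cells give the same contrast of delivery on other arrays, although FMR4 itself moves in opposite directions in them by design. At 6 h no member was called by limma, where 0.396% of all genes were higher and 0.13% lower in FMR4 pcDNA3.1 cells. At an unadjusted p under 0.05 there were 11 members of 62 and 3766 genes of 18417. HSPB8 there measured 7.22, 7.18 and 7.35 in FMR4 pcDNA3.1 cells, against 6.80, 9.41 and 10.55 in FMR4 siRNA cells, which overlap through FMR4 siRNA replicate 1. Its difference was −1.67 (SE 0.528, adjusted p = 0.0973), or −2.73 without that replicate (6.28e-05) and −0.86 without replicate 3 (0.376). DNAJC13 had a difference of 0.47 (adjusted p = 0.0518) and DNAJC5G of −0.22 (adjusted p = 0.0931). At 24 h 6 members were lower and none higher in FMR4 pcDNA3.1 cells, where 3.22% of all genes were higher and 5.16% lower. They were DNAJA2 (−0.34, SE 0.0667, adjusted p = 0.00203), DNAJB5 (−0.34, SE 0.0593, adjusted p = 0.000937), DNAJB12 (−0.28, adjusted p = 0.0159), HSPA2 (−0.28, adjusted p = 0.00714), DNAJC16 (−0.24, adjusted p = 0.0329) and DNAJB6 (−0.23, adjusted p = 0.0185). The other probe set of DNAJB6 had −0.08 here (adjusted p = 0.481). DNAJA2 measured 10.20, 10.25 and 10.09 in FMR4 pcDNA3.1 cells, against 10.57, 10.58 and 10.43 in FMR4 siRNA cells, with no overlap. DNAJC7, which differed between the control conditions at 24 h, had −0.12 here (adjusted p = 0.361). DNAJB12 was lost without FMR4 siRNA 24 h replicate 1 or 3 or FMR4 pcDNA3.1 24 h replicate 2 or 3 (up to 0.119), DNAJC16 without FMR4 siRNA 24 h replicate 1 or 2 or FMR4 pcDNA3.1 24 h replicate 2 or 3 (up to 0.14), and the count fell to 3 without FMR4 pcDNA3.1 24 h replicate 3. Both comparisons were added after the data had been seen.

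**Figure D3:**
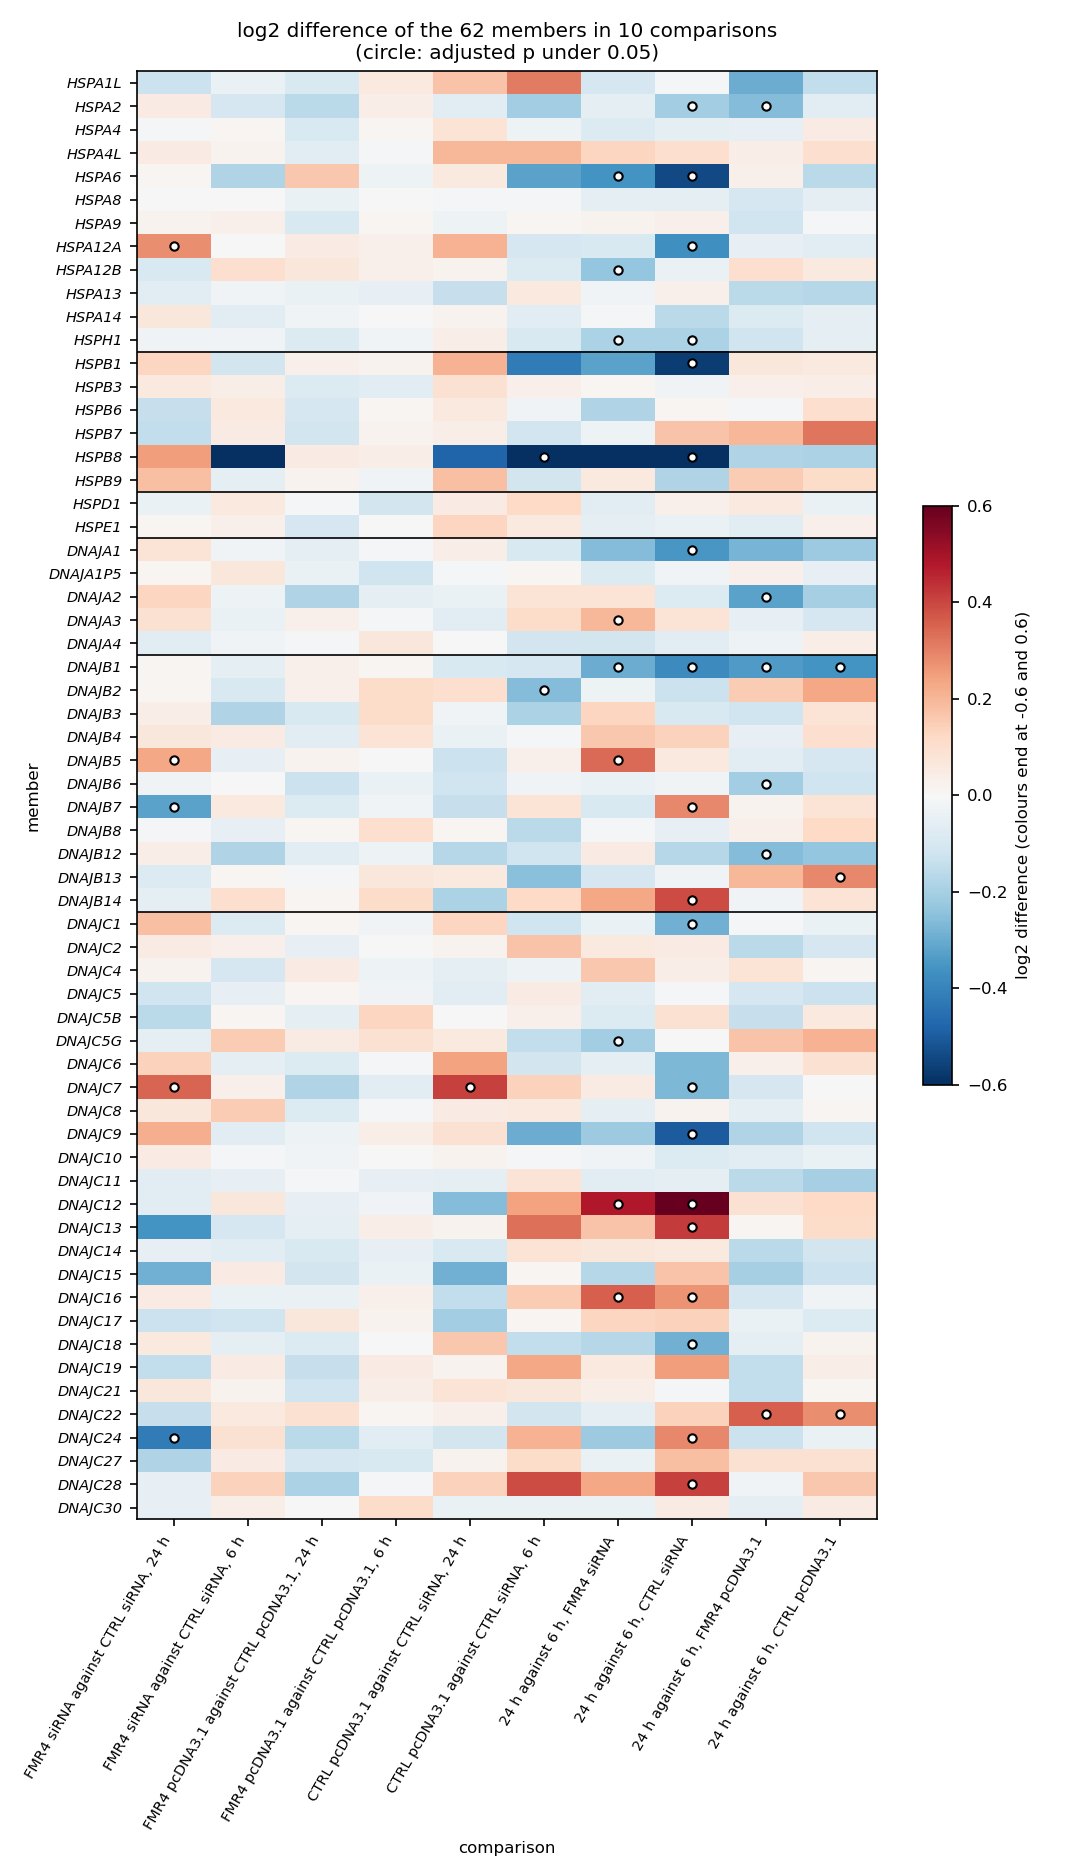
The log2 difference of each of the 62 members (rows, grouped by family) in 10 comparisons (columns), blue for lower and red for higher in the condition named first, with a circle where limma's adjusted p is under 0.05 and colours that end at −0.6 and 0.6. The circles crowd in the column of 24 h against 6 h in CTRL siRNA cells, 7 higher and 12 lower, DNAJB1 is circled in all 4 time columns, and the FMR4 pcDNA3.1 against CTRL pcDNA3.1 columns hold none.

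Counted over the 12 planned and 2 added comparisons, 29 of the 62 members were called at least once and 33 never. That is 46.8% of members, against 35.6% of all genes over the same comparisons, several of which share arrays. Those never called were both mitochondrial chaperonin genes, 7 of 12 HSPA and HSPH genes, 4 of 6 HSPB genes (HSPB3, HSPB6, HSPB7 and HSPB9), 2 of 5 DNAJA, 3 of 11 DNAJB and 15 of 26 DNAJC genes. Their condition means spanned 0.08 (DNAJC10, an oxidoreductase of the endoplasmic reticulum) to 0.51 (HSPA1L, a testis HSP70). With time in CTRL siRNA cells, where 9.8% of all genes were called higher and 8.75% lower, the J proteins held 13 of the 19 calls (68.4%) and are 42 of the 62 members (67.7%). There 5 DNAJC genes were higher and 4 lower of 26, 2 DNAJB genes higher and 1 lower of 11, 1 DNAJA gene lower of 5, 4 HSPA and HSPH genes lower of 12 and 2 HSPB genes lower of 6, while HSPD1 and HSPE1 were not called. The 10 mitochondrial chaperones and J proteins, which include HSPA9, HSPD1 and HSPE1, had 1 call in each siRNA arm and none in any comparison between treatments. These calls were DNAJA3 higher with FMR4 siRNA, where 12.3% of all genes were higher, and DNAJC28 higher with CTRL siRNA. Of the 6 J proteins of the endoplasmic reticulum measured, 2 were higher (DNAJC16, DNAJB14) and 2 lower (DNAJC1, DNAJC18) at 24 h in CTRL siRNA cells. With FMR4 siRNA 1 was higher, and with FMR4 pcDNA3.1 1 was lower, where 3.03% of all genes were lower. None was called with CTRL pcDNA3.1, where 3.83% of all genes were higher and 1.93% lower. The 12 members of the testis or muscle list were called at most 2 at a time, both lower with time in CTRL siRNA cells, where 8.75% of all genes were lower. HSPB8 was the only one whose difference passed 1 on the log2 scale. It reached 10.55 on an array of FMR4 siRNA cells at 6 h, so the name of the list does not describe it here. HSPA2, on the same list, had a mean of 8.03, also above the silent level.

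Of 38 partner genes listed 33 had a probe set of their own. HSF1, the regulator of the heat response, had differences at 24 h against 6 h of 0.13 with FMR4 siRNA, 0.09 with CTRL siRNA, −0.13 with FMR4 pcDNA3.1 and −0.21 with CTRL pcDNA3.1, none called, and was lower in CTRL pcDNA3.1 than in CTRL siRNA cells at 24 h (−0.29, limma adjusted p = 0.00902). BAG3, the partner of HSPB8, measured 10.40, 10.39 and 10.76 in FMR4 siRNA cells at 6 h and 10.51, 10.62 and 10.68 in CTRL siRNA cells at 6 h. It was called in no comparison, and the highest of these is again FMR4 siRNA replicate 3. HSP90AA1 and HSP90AB1, the cytosolic HSP90 genes, were not called in any comparison. Between FMR4 siRNA and CTRL siRNA cells at 24 h 4 partners were higher, SEC63 (0.49, adjusted p = 4.49e-05), a J protein of the translocon, HYOU1 (0.30, adjusted p = 0.0137), BAG5 (0.27, adjusted p = 0.00494) and CCT8 (0.21, adjusted p = 0.0209), and 1 was lower, GRPEL2 (−0.41, adjusted p = 0.000152), a mitochondrial exchange factor, where 3.43% of all genes were higher and 2.45% lower. SEC63 measured 12.23, 12.27 and 12.12 in FMR4 siRNA cells, against 11.74, 11.59 and 11.80 in CTRL siRNA cells, and the CTRL siRNA arrays were again the lowest of the 24, with 0.65 between CTRL pcDNA3.1 and CTRL siRNA cells (adjusted p = 3.06e-06). The CTRL siRNA arrays of 24 h were also the lowest of the 24 for BAG5 (9.02, 9.09 and 9.03) and CCT8 (10.01, 10.14 and 9.98). HYOU1 instead had its highest condition mean in FMR4 siRNA cells at 24 h (10.66). GRPEL2 had its lowest there (11.27) and its highest in CTRL siRNA cells at 24 h (11.67). With time 4 partners were higher and 1 lower in FMR4 siRNA cells, 2 higher and 6 lower in CTRL siRNA cells, against 12.3% of all genes higher and 4.37% lower with FMR4 siRNA and 9.8% and 8.75% with CTRL siRNA. In each plasmid arm GRPEL1 alone was lower (−0.28 with FMR4 pcDNA3.1, adjusted p = 0.00683, and −0.31 with CTRL pcDNA3.1, adjusted p = 0.00316). Of all genes 3.03% were lower with FMR4 pcDNA3.1 and 1.93% with CTRL pcDNA3.1.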

How the data were processed

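Total RNA of HEK293T cells was hybridised to Affymetrix Human Gene ST arrays, version 1.0 by the labels and the platform annotation, while the study's methods name version 2.0. The authors subtracted background and normalized the arrays by GC-RMA in Bioconductor after scanning with Affymetrix Command Console, and deposited log2 values (range 2.62 to 14.5) of 33297 probe sets. Tool versions are not given in the sources used here, and depth does not apply to arrays, so the number of arrays limits the precision.

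Genes came from the platform annotation, in which 21214 probe sets had a gene, 19460 a single symbol, 1754 several and 12083 none. The members had 66 probe sets, since HSPA1L, DNAJB6 and DNAJC19 had more than 1, and 12 further probe sets with a chaperone symbol among several were left out. A limma model (limma 3.58.1, R 4.3.3) with 1 mean per condition was fitted to all 24 arrays (lmFit, eBayes, 16 residual degrees of freedom), two-sided, with Benjamini-Hochberg adjustment over 21214 probe sets within each of 12 comparisons and 2 added after the data were seen. It was tested on simulated data. Percentages of genes called are over 18417 genes with 1 probe set each. The members and lists were chosen with earlier results of these data known. Named members were, per comparison, up to 5 rises and 5 falls past the threshold whose arrays did not overlap, or up to 3 of lowest p where fewer than 3 passed, those called in a change between times, and a core set of abundant or heat-inducible genes. Others are named as exceptions chosen after their values were seen: members lost or gained when 1 array was left out, HSPA6 with overlapping arrays, and partners.

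Alternatives were other sets of arrays in the fit, a mean over a gene's probe sets, array weights, moderation with trend and robust options, arrays centred on their median or quantile-normalized, adjustment over the whole table, a filter on dim signals, the replicate number as a block, and each array left out in turn. Promoter windows were RefSeq's on GRCh38.p14, searched in Python 3.11.15, and figures were drawn with matplotlib 3.10.9.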

Additional observations from a re-analysis of the deposited data

Results flagged for a closer look

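The effect of FMR4 siRNA on DNAJC24 differed between the times, with a change of −0.51 on the log2 scale (95% confidence interval −0.75 to −0.26, limma adjusted p = 0.0312): the difference from CTRL siRNA cells was −0.42 at 24 h and 0.09 at 6 h. Leaving out 1 array gave adjusted p between 0.0205 and 0.0964.

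The difference of CTRL pcDNA3.1 from CTRL siRNA cells in DNAJC12 also changed by −0.51 (interval −0.73 to −0.28, limma adjusted p = 0.0278), being −0.26 at 24 h and 0.24 at 6 h. Neither difference passed the threshold at its own time (adjusted p = 0.0583 and 0.0757), and leaving out 1 array gave adjusted p between 0.0316 and 0.0882 for the change.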

How the results depend on the processing

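With 3 arrays per condition the counts of members called moved with single arrays and with the arrays that set the spread. The share of all genes called under each other setting is not given here. The counts below thus show how calls moved and do not set the members against other genes. For 24 h against 6 h, leaving out 1 array gave 3 to 15 members with FMR4 siRNA (9 with all arrays; 15 on leaving out 6 h replicate 1 and 3 on leaving out 6 h replicate 3), 11 to 19 with CTRL siRNA (19; 11 without 6 h replicate 3), 2 to 4 with FMR4 pcDNA3.1 (6; 2 without 24 h replicate 3, 3 without 6 h replicate 2 or 3) and 0 to 3 with CTRL pcDNA3.1 (3; 0 without 24 h replicate 2, 1 without 24 h replicate 1). FMR4 siRNA against CTRL siRNA gave 2 to 4 at 24 h and 0 to 4 at 6 h (4 without FMR4 siRNA 6 h replicate 3), and FMR4 pcDNA3.1 against CTRL pcDNA3.1 0 to 0 at both times. CTRL pcDNA3.1 against CTRL siRNA gave 1 to 1 at 24 h and 0 to 3 at 6 h (0 without CTRL siRNA replicate 3 or CTRL pcDNA3.1 replicate 1 or 3, 1 without CTRL siRNA replicate 1 or CTRL pcDNA3.1 replicate 2). FMR4 pcDNA3.1 against FMR4 siRNA gave 3 to 7 at 24 h and 0 to 9 at 6 h (9 without FMR4 siRNA replicate 1). The change in the knockdown effect gave 0 to 8 (among FMR4 siRNA arrays of 6 h, 8 without replicate 3 and 2 without replicate 1) and the change between control conditions 0 to 1.

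Fitting only the arrays compared gave 6 members for CTRL pcDNA3.1 against CTRL siRNA at 6 h, 0 for time with FMR4 siRNA, 6 for time with CTRL pcDNA3.1, 0 for the change in the knockdown effect and 6 for that between control conditions. Fitting 12 arrays of the same time or delivery gave 2 and 0 for the control conditions at 24 and 6 h, 3, 6 and 5 for time with FMR4 siRNA, CTRL siRNA and CTRL pcDNA3.1, and 0 for the change in the knockdown effect. It gives no value for the change between control conditions. Array weights gave 8 for the knockdown at 24 h, 6 and 14 for the control conditions at 24 and 6 h, 11 and 9 for time with FMR4 pcDNA3.1 and CTRL pcDNA3.1, 7 and 14 for the changes in the knockdown effect and between control conditions, and 10 and 4 for FMR4 pcDNA3.1 against FMR4 siRNA at 24 and 6 h. For the control conditions at 24 h, removing dim probe sets, quantile normalization and median centring each gave 2. At 6 h quantile normalization gave 4 and adjusting over all probe sets 1. Adjusting over all probe sets also gave 1 for time with CTRL pcDNA3.1 and 0 for each change. FMR4 pcDNA3.1 against FMR4 siRNA at 6 h had 1 with trend and robust moderation, without dim probe sets, with median centring and with the mean over probe sets. The cause of these moves was not tested.

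The replicate number as a block gave 1 member for the control conditions at 6 h, 1 for time with CTRL pcDNA3.1 and 1 for FMR4 pcDNA3.1 against FMR4 siRNA at 6 h, and left the other counts within 1.5 times. The numbers were not treated as pairs: same-number correlations ran between −0.37 and 0.46, 6 of 30 were over 0.1, and 10 of 30 arrays correlated best with their own number. The 0.46 was between FMR4 siRNA and CTRL siRNA arrays of 6 h, where 2 were over 0.1 and different numbers gave −0.52 to 0.39. HSPB8, HSPB1 and DNAJA1 rose with the replicate number in both of these conditions, while DNAJB1, HSPA6 and HSPH1 did not. What this order reflects was not tested.

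For 45 of the calls named, 559 of 728 settings gave the same call and 169 missed the threshold. Other calls named are not in this count. These are the smaller ones with time in CTRL siRNA cells, that of DNAJB6 between FMR4 pcDNA3.1 and FMR4 siRNA cells, and those of partners. For 32 named differences not called, 470 of 510 settings gave the same, 39 passed the threshold and 1 changed sign: HSPA6 with time in FMR4 pcDNA3.1 cells had 0.03 and, without 24 h replicate 2, −0.02, with a range of −0.02 to 0.12 over the arrays left out.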

Other observations

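Members of low signal gave calls as well. DNAJB7, with a mean of 5.58 under the silent level, passed the threshold between FMR4 siRNA and CTRL siRNA cells at 24 h and with time in CTRL siRNA cells. Both calls use the CTRL siRNA 24 h arrays, at 5.80, 5.75 and 5.78, while the 21 other arrays lay between 5.33 and 5.74.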
